A study of Mus musculus with 8 samples.

Results

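Enteric glia are the support cells of the nervous system of the gut. The 8 genes described here, *Sox10*, *S100b*, *Gfap*, *Erbb3*, *Foxd3*, *Cdh19*, *Fabp7* and *Gpm6b*, were chosen by name as genes of enteric glia and their precursors, among the 26008 genes of the deposited table. All 8 were in the table and all 8 had a mean of at least 10 normalized counts over the libraries, the minimum for a test, as did 19127 genes in all. A normalized count is the number of reads on a gene divided by a size factor of its library, so that libraries of different depth can be compared.

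The RNA came from colon biopsies of 8 hematopoietic chimeras, 4 per genotype, with 1 stranded poly-A library per mouse. All recipients were male C57BL/6JRj mice, wild type for *Penk*, the gene of the opioid precursor proenkephalin. They were lethally irradiated with 1100 rad when 7 weeks old and grafted with bone marrow of male donors 9 to 11 weeks old. Donors of one group were Penk-/- mice of the B6.129-Penk-rstm1Pig/J strain, in which a neomycin box interrupts exon 2, and donors of the other were Penk+/+ mice. The chimeras were examined 18 to 21 weeks after the graft. Glia, neurons, muscle and epithelium of the recipients carried an intact *Penk* in both groups, and the deletion was present only in cells derived from the grafted marrow. Chimeras are called by the genotype of their donor and numbered as in the labels.

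Enteric glia come from the neural crest and lie around neurons in the myenteric and submucosal plexuses, along nerve fibres in the muscle, and in the mucosa. They share many genes with Schwann cells, the glia of peripheral nerves, and with astrocytes of the brain. The transcription factor SOX10 keeps the lineage in its glial state, and neuregulins act on crest and Schwann cells through the receptor ERBB3, which pairs with ERBB2. ERBB3 is also made by the epithelium of the intestine, so that its gene is a glial marker only where epithelium is absent.

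Depth ranged from 33.1 M to 50.7 M reads on genes per library. *Penk* itself ranged from 453 to 616 normalized counts with Penk-/- and from 473 to 636 with Penk+/+ marrow. Recipient cells carry the intact gene, so that its level in the biopsy does not check the labels of the donors. Markers of smooth muscle (10 of 10 genes), enteric neurons (10 of 10) and epithelium (8 of 8) were present above 0 in every library, and those of epithelium summed to between 357257 and 523691 normalized counts. Genes of male accessory glands were also found. *Pbsn*, a secreted protein of the prostate, had 105658 normalized counts in Penk-/- chimera 3 and 111024 in Penk+/+ chimera 4, between 2398 and 13425 in 4 other libraries, and was at 0 in Penk-/- chimera 1 and Penk+/+ chimera 3. Fold changes of the members are therefore given below also without the libraries richest in *Pbsn*.

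The genes lie at separate places of the genome. To show their start regions, the 250 bases before the start of the Ensembl canonical transcript were read from the mouse genome GRCm39. The windows of *Cdh19*, *Fabp7* and *Gfap* held no annotated exon and are printed 5′ to 3′ on the strand of the gene. They belong to genes that varied in different ways across the libraries: *Cdh19* with *Gpm6b*, *Fabp7* more than any other member, and *Gfap* with no other member strongly. The coordinates are chr1:110905350-110905599 (minus strand), chr10:57660706-57660955 (plus strand) and chr11:102788186-102788435 (minus strand).
Cdh19: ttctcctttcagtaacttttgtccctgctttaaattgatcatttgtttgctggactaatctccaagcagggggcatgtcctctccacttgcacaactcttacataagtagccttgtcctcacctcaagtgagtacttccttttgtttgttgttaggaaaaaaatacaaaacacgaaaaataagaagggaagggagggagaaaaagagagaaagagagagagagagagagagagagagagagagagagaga
Fabp7: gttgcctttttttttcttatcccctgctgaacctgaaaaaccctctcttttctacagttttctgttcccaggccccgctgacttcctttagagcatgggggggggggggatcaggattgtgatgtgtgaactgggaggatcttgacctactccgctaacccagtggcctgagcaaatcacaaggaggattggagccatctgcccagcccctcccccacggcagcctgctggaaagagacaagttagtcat
Gfap: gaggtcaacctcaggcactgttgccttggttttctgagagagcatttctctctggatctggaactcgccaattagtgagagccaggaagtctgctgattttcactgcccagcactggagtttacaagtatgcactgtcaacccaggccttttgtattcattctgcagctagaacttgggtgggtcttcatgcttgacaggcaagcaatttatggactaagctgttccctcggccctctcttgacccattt

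SOX factors such as SOX10 bind short sites, of which ACAAAG and ACAATG were searched on both strands. They begin with the same letters and cannot both match at the same position. None of the printed windows holds either of them, and they are therefore in lower case throughout. Of the 8 members, 1, *Gpm6b*, had a match, ACAATG at 159 bases before the start of its canonical transcript. Its window overlaps 1 annotated exon, and the match lies inside the annotated span of the gene. The match is shown in capitals with the bases beside it, at chrX:165021628-165021657 on the plus strand.
Gpm6b: ttctttatctgtACAATGggtggtgagtaa
Over 21770 protein-coding promoters of the same length, 15.9% held ACAAAG, 9.41% held ACAATG and 23.7% held at least 1 of them. These matches describe letters only.

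*Sox10*, the transcription factor of the lineage (ENSMUSG00000033006, chr15:79039108-79049469, minus strand), had 102, 168, 193 and 148 normalized counts in Penk-/- chimeras 1 to 4, and 97.1, 126, 119 and 123 in Penk+/+ chimeras 1 to 4. In each genotype chimera 1 was the lowest. Chimeras 2, 3 and 4 of Penk-/- were above every Penk+/+ chimera, and the groups overlapped through Penk-/- chimera 1. The means were 153 ± 38.7 and 116 ± 13.1 (SD, n = 4 per genotype). The log2 fold change was 0.36 with a standard error of 0.20 (95% interval -0.08 to 0.81). The difference did not pass the test (limma, p = 0.0994, adjusted p = 0.608 over 19127 genes; two-sided exact permutation test, p = 0.143). In bulk tissue, fewer cells of a type and less RNA per cell cannot be told apart, which holds for every gene below.

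*Foxd3*, a transcription factor of the early neural crest (ENSMUSG00000067261, chr4:99544536-99546859, plus strand), was the weakest member per length. It had 12.1, 19.5, 24.7 and 23.2 normalized counts in Penk-/- chimeras, against 22.4, 29.5, 12.3 and 20.6 in Penk+/+ chimeras. The ranges covered each other almost entirely. Between 12 and 34 reads lay behind these values, which gives a counting error of 17.1% to 28.9% alone. For *Foxd3* the log2 fold change was -0.07 with a standard error of 0.32 (95% interval -0.80 to 0.65), and its adjusted p with limma was 0.966. The gene overlaps non-coding RNA genes on the opposite strand and a microRNA gene, *Gm55933*, on its own strand. The strand setting of the counting is not given in the sources used here. The reads of *Foxd3* can therefore not be fully separated from those of these genes.

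*Erbb3*, the neuregulin receptor (ENSMUSG00000018166, chr10:128403392-128425811, minus strand), was the only member whose genotypes did not overlap. It had 19096, 17387, 11933 and 19396 normalized counts in Penk-/- chimeras, against 28138, 24294, 25374 and 21279 in Penk+/+ chimeras. The gene also spans the microRNA gene *Mir6917* on its own strand. The highest Penk-/- chimera, 4, lay below the lowest Penk+/+ chimera, also 4, and Penk-/- chimera 3 was the lowest of all. The means were 16953 ± 3462 and 24771 ± 2836 (SD, n = 4 per genotype). The log2 fold change was -0.57 with a standard error of 0.16 (95% interval -0.91 to -0.22). The unadjusted p of limma was 0.00495, the adjusted p was 0.351, and the two-sided exact permutation test gave p = 0.0286, the smallest possible with 4 against 4 libraries. *Erbb3* thus did not pass the adjustment over all genes. In the same fit 9.63% of all genes had an unadjusted p below 0.05, and in 5.63% of all genes the genotypes did not overlap. Without the chimeras richest in *Pbsn* the log2 fold change of *Erbb3* was -0.48.

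Turning to the cytoplasmic and membrane proteins of glia, *S100b* codes for a calcium-binding protein used as a general marker of enteric glia (ENSMUSG00000033208, chr10:76085090-76097159, plus strand). It had 101, 127, 119 and 124 normalized counts in Penk-/- chimeras, against 111, 99.8, 124 and 106 in Penk+/+ chimeras. It was the steadiest member, with a highest library 1.27 times the lowest. Its log2 fold change was 0.09 with a standard error of 0.13 (95% interval -0.20 to 0.39, limma adjusted p = 0.867). The gene overlaps *Dip2a* on the opposite strand.

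*Gfap*, the intermediate filament of astrocytes and of a part of enteric glia (ENSMUSG00000020932, chr11:102778159-102791738, minus strand), had 164, 272, 170 and 206 normalized counts in Penk-/- chimeras, against 246, 236, 256 and 217 in Penk+/+ chimeras. Penk-/- chimera 2 was the highest of all libraries, whereas the other Penk-/- chimeras were below every Penk+/+ chimera. The means were 203 ± 49.9 and 239 ± 16.6 (SD, n = 4 per genotype), with a log2 fold change of -0.26 and a standard error of 0.16 (95% interval -0.63 to 0.11). The difference did not pass the test (limma adjusted p = 0.650; two-sided exact permutation test, p = 0.229).

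*Cdh19*, an adhesion molecule of the cadherin family found on crest-derived glia (ENSMUSG00000047216, chr1:110815039-110905349, minus strand), had 247, 283, 442 and 331 normalized counts in Penk-/- chimeras, against 249, 354, 402 and 355 in Penk+/+ chimeras. *Gpm6b*, a membrane proteolipid of neurons and glia (ENSMUSG00000031342, chrX:165021561-165172033, plus strand), had 414, 450, 736 and 538 normalized counts in Penk-/- chimeras, against 392, 641, 614 and 508 in Penk+/+ chimeras. Both were highest in Penk-/- chimera 3 and low in chimera 1 of either genotype, and the genotypes overlapped widely. The log2 fold change of *Cdh19* was -0.07 with a standard error of 0.20 (95% interval -0.52 to 0.37, limma adjusted p = 0.941). That of *Gpm6b* was -0.02 with a standard error of 0.20 (95% interval -0.48 to 0.44, limma adjusted p = 0.986). *Cdh19* overlaps the annotated genes *Gm38255* and *Gm36944* on its own strand.

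*Fabp7*, a fatty acid-binding protein of glial precursors (ENSMUSG00000019874, chr10:57660956-57664554, plus strand), was the most variable member. It had 10.1, 12.6, 79.2 and 23.2 normalized counts in Penk-/- chimeras, against 9.96, 29.5, 11.2 and 36.9 in Penk+/+ chimeras. Penk-/- chimera 3 stood far above the others, with a value 7.96 times that of the lowest library, and Penk+/+ chimera 4 came next. These are also the libraries richest in *Pbsn*. Behind the values lay between 8 and 109 reads, and the gene overlaps a non-coding RNA gene on the opposite strand. In the fit *Fabp7* had a log2 fold change of 0.23 with a standard error of 0.65 (95% interval -1.23 to 1.69, limma adjusted p = 0.943). It was -0.05 without the chimeras richest in *Pbsn*, and -0.37 without Penk-/- chimera 3 alone.

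**Figure D1:**
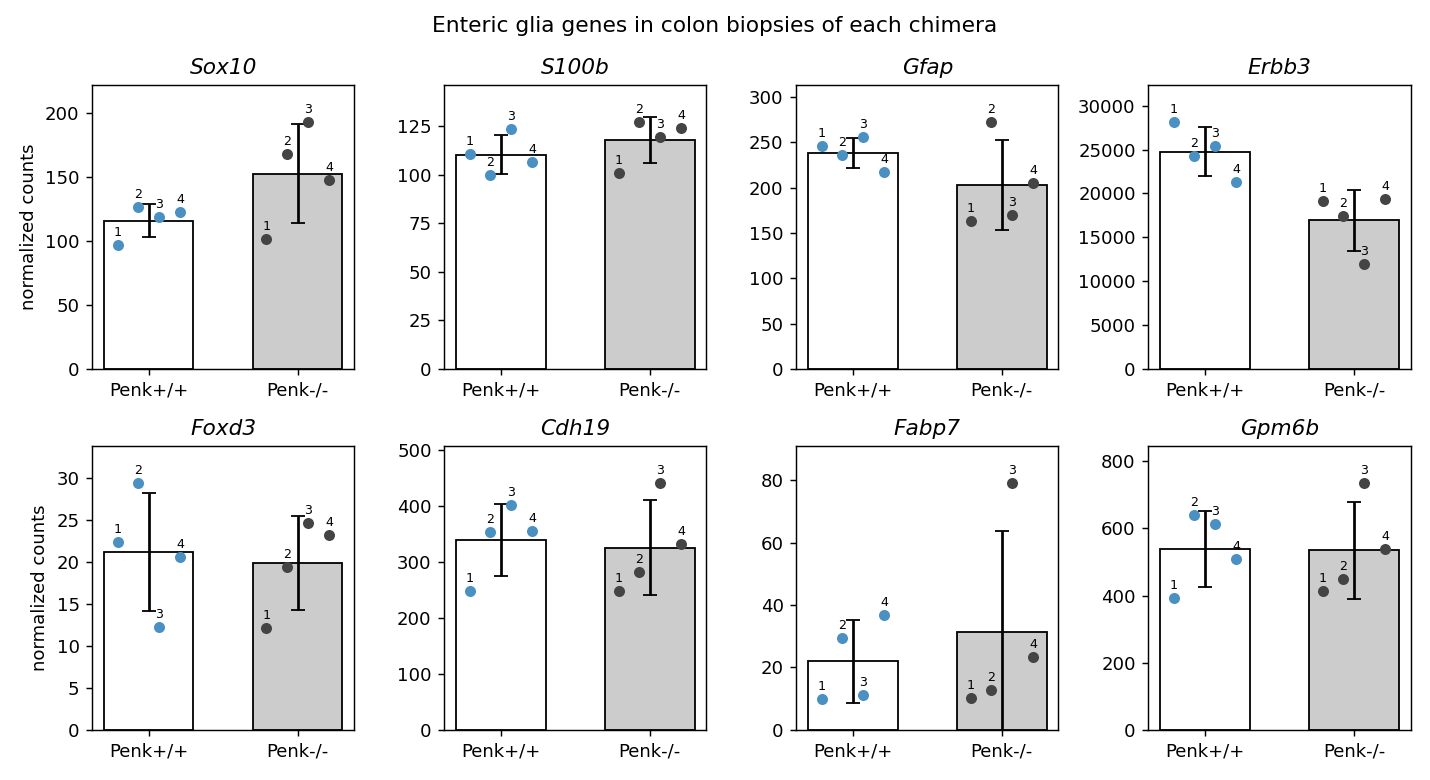
Normalized counts of the 8 genes (vertical axes, each starting at 0) in Penk+/+ and Penk-/- chimeras. Bars are means of 4 libraries, error bars are 1 SD (that of *Fabp7* in Penk-/- chimeras goes below the axis), and numbered points are single chimeras. The points of the genotypes are separate only for *Erbb3*, where all 4 Penk-/- chimeras lie at or below 19396 and all Penk+/+ chimeras at 21279 or above.

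Taking the members as a list, 0 of 8 had an adjusted p below 0.05 in limma, as did 0 of 19127 genes in all (0%). At an unadjusted p below 0.05 there was 1 of 8, *Erbb3*, and 1842 of all genes. The smallest adjusted p over all genes was 0.132. The authors, with DESeq2 and their own limits on fold change and false discovery rate, did report a few differing genes in these libraries. Of the members 3 had a positive and 5 a negative log2 fold change, with a median of -0.05, beside a median of 0.01 for all genes tested. Apart from that of *Erbb3*, the intervals left room for changes in either direction. For *S100b*, the most precise member, the interval reached from -0.20 to 0.39 on the log2 scale, and for *Fabp7*, the least precise, from -1.23 to 1.69.

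**Figure D2:**
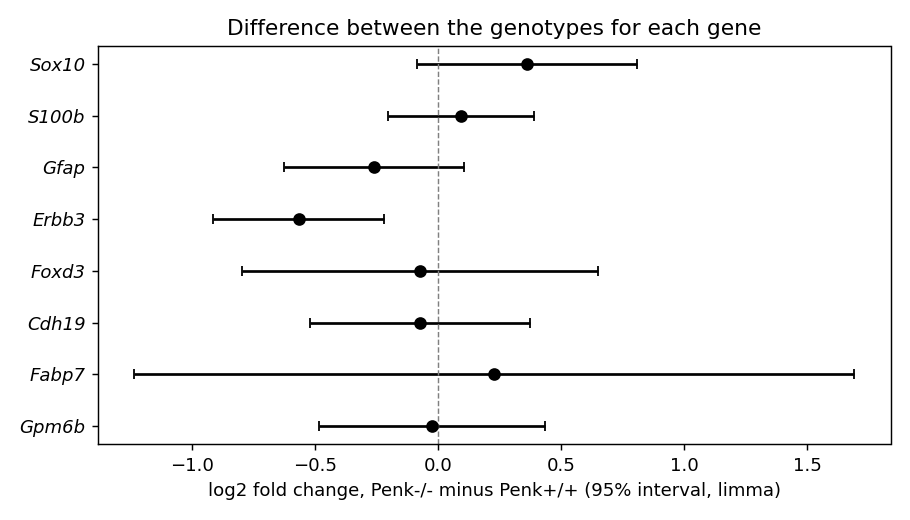
Log2 fold change of each gene, Penk-/- minus Penk+/+ (horizontal axis), with the 95% interval of the limma fit over 8 libraries. The interval of *Erbb3* (-0.91 to -0.22) lies below 0, and those of the other 7 genes include 0.

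Levels can be compared between genes only per length. Per kilobase of exon, *Erbb3* had 3308 ± 809 normalized counts (SD, n = 8 libraries), far above all other members. *Gpm6b* followed with 72.0 ± 16.1, *Cdh19* with 60.9 ± 12.8, *S100b* with 57.1 ± 5.44, *Sox10* with 40.4 ± 9.96, *Gfap* with 38.7 ± 6.89, *Fabp7* with 20.8 ± 18.4 and *Foxd3* with 8.83 ± 2.56. The neighbours *Cdh19* and *S100b* changed order from library to library, the first being higher in 4 of 8 libraries, and so did *Sox10* and *Gfap* (4 of 8). *Erbb3* exceeded *Gpm6b*, *Gpm6b* exceeded *Cdh19*, and *S100b* exceeded *Sox10* in 8 of 8 libraries. *Gfap* over *Fabp7* and *Fabp7* over *Foxd3* held in 7 of 8.

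The other genes of enteric glia were taken from a list of 16 genes, all 16 of which were tested. None had an adjusted p below 0.05 in limma (0.699 to 0.999), 0 of 16 had an unadjusted p below 0.05, and in none were the genotypes separate. Their median log2 fold change was 0.03, with 10 positive and 6 negative. *Lgi4*, a secreted protein of glia, had 169, 237, 289 and 238 normalized counts in Penk-/- chimeras, against 178, 281, 222 and 218 in Penk+/+ chimeras. It was highest in Penk-/- chimera 3 and lowest in Penk-/- chimera 1, with overlapping genotypes.

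The genes of that list with the highest means were *L1cam*, *Matn2* and *Scn7a*. *L1cam*, an adhesion molecule also made by neurons, had 4549 ± 176 normalized counts with Penk-/- and 4309 ± 199 with Penk+/+ marrow (SD, n = 4 per genotype), a log2 fold change of 0.08. *Matn2*, a matrix protein, had 1285 ± 355 and 1179 ± 262, and *Scn7a*, a sodium channel, had 1144 ± 245 and 1134 ± 165. *Entpd2*, an ectonucleotidase on the surface of enteric glia, varied little, from 506 to 593 normalized counts over the 8 libraries.

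Of 7 genes of neuregulins and their receptors, 6 passed the minimum and *Erbb4* did not. None had an adjusted p below 0.05. *Erbb2*, the partner of *Erbb3*, had 9057, 8810, 6200 and 9284 normalized counts in Penk-/- chimeras, against 11756, 10458, 10637 and 10632 in Penk+/+ chimeras. As for *Erbb3*, the genotypes did not overlap and Penk-/- chimera 3 was the lowest. For *Erbb2* the log2 fold change was -0.40 with a standard error of 0.12 (limma p = 0.00926, adjusted p = 0.388; two-sided exact permutation test, p = 0.0286, the lowest value possible).

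*Nrg1*, a ligand of ERBB3, had 238, 280, 344 and 247 normalized counts in Penk-/- chimeras, against 173, 204, 241 and 183 in Penk+/+ chimeras. The genotypes overlapped only through Penk-/- chimera 1 and Penk+/+ chimera 3. Its log2 fold change was 0.46 with a standard error of 0.15 (limma p = 0.0125, adjusted p = 0.408; two-sided exact permutation test, p = 0.0571). *Egfr*, another receptor of the family, had 2413 ± 100 and 2488 ± 251 normalized counts (SD, n = 4 per genotype), a log2 fold change of -0.04.

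Among 16 genes of the neural crest and of enteric progenitors, 13 were tested and 0 had an adjusted p below 0.05 in limma. The median log2 fold change was -0.09. At an unadjusted p below 0.05 there was 1 gene, *Notch1*, a receptor of cell-to-cell signalling found in many tissues, with 1715 ± 140 normalized counts with Penk-/- and 1293 ± 294 with Penk+/+ marrow (SD, n = 4 per genotype; limma adjusted p = 0.406). Penk+/+ chimera 4, with 1725, lay among the Penk-/- chimeras. *Hes1*, a target of Notch, had 2614 ± 740 and 2988 ± 426 normalized counts, and *Zeb2*, a transcription factor of the crest, 1459 ± 268 and 1233 ± 442, with overlapping genotypes.

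Reactive glia, which respond to injury or inflammation, were described by a list of 8 genes that other cells of the colon also express. All 8 were tested and 0 had an adjusted p below 0.05 in limma, with a median log2 fold change of 0.19 and 6 positive values. *Timp1*, an inhibitor of matrix metalloproteinases, had 64.6, 64.1, 71.2 and 60.8 normalized counts in Penk-/- chimeras, against 26.1, 40.9, 36.8 and 44.6 in Penk+/+ chimeras. Every Penk-/- chimera was above every Penk+/+ chimera. The log2 fold change was 0.82 with a standard error of 0.20 (limma p = 0.00205, adjusted p = 0.339; two-sided exact permutation test, p = 0.0286, the lowest value possible). The genes of highest mean were *Stat3*, a signalling factor (7418 ± 763 and 8260 ± 919 normalized counts, SD, n = 4 per genotype), the complement gene *C3* (6273 ± 1169 and 7164 ± 2586) and the filament gene *Vim* (6852 ± 1148 and 5928 ± 1559). None of these was separate between the genotypes.

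Relatives of the members by gene family were 17, of which 14 were tested. None had an adjusted p below 0.05 in limma, and the median log2 fold change was 0.0045. *Sox9*, a relative of *Sox10* made by crypt epithelium as well as glia, had 2221 ± 300 normalized counts with Penk-/- and 1811 ± 93.8 with Penk+/+ marrow (SD, n = 4 per genotype), a log2 fold change of 0.29 with an unadjusted p below 0.05 and a limma adjusted p of 0.425. Penk-/- chimera 1, with 1813, lay among the Penk+/+ chimeras. The most abundant relatives were *S100a6* (43559 ± 8209 and 45407 ± 5922), *Des* (25178 ± 6134 and 25064 ± 4606) and *S100a10* (10090 ± 1300 and 10786 ± 778), with overlapping genotypes.

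Biopsies differ in how much muscle, nerve and epithelium they hold, and the members were set beside scores of these tissues. Each log2 value was centred on the mean of its gene over the 8 libraries, and the score of a tissue in a library is the average of these centred values over its marker list. The muscularis score is that of smooth muscle minus that of epithelium. It was -0.52, 0.41, 0.54 and 0.03 in Penk-/- chimeras 1 to 4 and -0.50, -0.04, 0.31 and -0.23 in Penk+/+ chimeras 1 to 4. Chimera 1 of both genotypes thus had the least muscle for its epithelium, and Penk-/- chimera 3 the most.

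*Sox10* followed this score, with Pearson's r of 0.869 over 8 libraries (permutation over all pairings, p = 0.00667, adjusted over the 8 members 0.0534) and Spearman's rho of 0.833 (permutation p = 0.0154, adjusted 0.123). The r was 0.753 without Penk-/- chimeras 1 and 3, the libraries farthest from the median of the score, and 0.887 within the genotypes. *S100b* (0.720), *Cdh19* (0.712) and *Gpm6b* (0.702) had positive r values as well, each with an adjusted permutation p of 0.120. The r of *Fabp7* was 0.443, of *Gfap* 0.170, of *Foxd3* 0.154 and of *Erbb3* -0.574. None of the 8 relations had an adjusted p below 0.05. All values of a library share its size factor.

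With smooth muscle, neuron, epithelium, Schwann cell and adipocyte scores taken singly, 40 more relations were computed and adjusted together. The closest was that of *Sox10* with epithelium, with r of -0.932 (permutation p = 0.000198, adjusted 0.00794) and rho of -0.929 (permutation p = 0.00223, adjusted 0.0893). It was -0.917 without Penk-/- chimera 3 and Penk+/+ chimera 1, the libraries farthest from the median, and -0.907 within the genotypes. The epithelium score was 0.13, -0.11, -0.38 and 0.01 in Penk-/- chimeras, against 0.22, 0.04, 0.01 and 0.06 in Penk+/+ chimeras. The order of the libraries by *Sox10* was thus nearly the reverse of their order by epithelium.

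*Erbb3* went the other way. Its r with epithelium was 0.873 (permutation p = 0.00895, adjusted 0.179) and its rho 0.667 (permutation p = 0.0831). Without Penk-/- chimera 3 and Penk+/+ chimera 1 the r was 0.296, so that the relation rests on those libraries. The r was 0.883 within the genotypes and 0.622 without the chimeras richest in *Pbsn*. *Erbb3* had a negative r with 6 of the other 7 members, the lowest with *Sox10* (-0.818), and a positive one with *Gfap* (0.591).

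All 8 markers of epithelium had a negative log2 fold change, with a median of -0.17, and 0 of 8 had an unadjusted p below 0.05 in limma. They summed to 357257 to 488848 normalized counts with Penk-/- and 451982 to 523691 with Penk+/+ marrow. Relative to the epithelium score, the mean log2 difference of *Erbb3*, Penk-/- minus Penk+/+, was -0.39 (SD 0.14 in Penk-/- and 0.13 in Penk+/+ chimeras, n = 4 per genotype; two-sided exact permutation test, p = 0.0286, the lowest value possible), and the genotypes did not overlap. *Erbb2* differed by -0.23 (two-sided exact permutation test, p = 0.0286). These values were added after the data were seen, for genes already known to be separate between the genotypes, and the p for *Erbb3* was 0.0571 without any 1 Penk-/- chimera (exact permutation test). The part of epithelium in the difference was not tested.

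**Figure D3:**
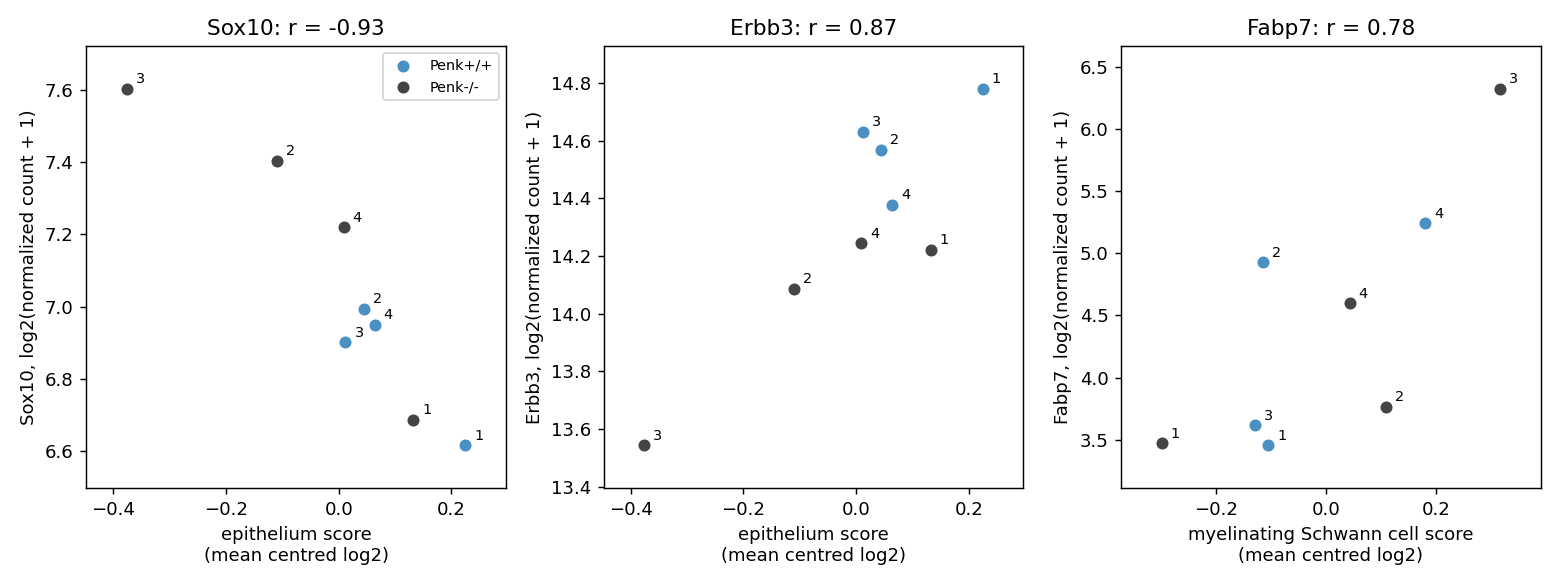
Log2(normalized count + 1) of *Sox10*, *Erbb3* and *Fabp7* (vertical axes) against the epithelium score, for the first pair, or the myelinating Schwann cell score, for *Fabp7* (horizontal axes, mean centred log2). Each numbered point is 1 chimera, coloured by genotype. *Sox10* goes down as epithelium goes up (r = -0.932), *Erbb3* goes up (r = 0.873) with Penk-/- chimera 3 far from the rest, and *Fabp7* is highest in Penk-/- chimera 3, which also has the highest Schwann cell score (r = 0.775).

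*Fabp7* was set beside 7 genes of myelinating Schwann cells, with r of 0.775 (permutation p = 0.0199, adjusted 0.193) and rho of 0.714 (permutation p = 0.0576, adjusted 0.432). This did not pass the adjustment. The score averages all 7 genes, *Pmp22* and *Mbp* included. The r was 0.460 without Penk-/- chimeras 1 and 3, and 0.318 without the chimeras richest in *Pbsn*, so that the relation rests on those libraries. Penk-/- chimera 3 and Penk+/+ chimera 4 had the highest Schwann cell scores, 0.32 and 0.18, and the highest values of *Fabp7*.

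*Mag*, a myelin protein, had 9.09, 17.2, 20.4 and 13.3 normalized counts in Penk-/- chimeras, against 7.47, 4.75, 12.3 and 15.4 in Penk+/+ chimeras, so that it was above 0 in all libraries. Without the widely expressed *Pmp22* and *Mbp*, the remaining 5 of 7 markers summed to 333 to 497 normalized counts with Penk-/- and 342 to 441 with Penk+/+ marrow. Of the 7 markers 0 had an unadjusted p below 0.05 in limma between the genotypes, and their median log2 fold change was 0.04. Of 5 markers of melanocytes, another cell of the crest, *Dct* (11.2 to 20.4 normalized counts) and *Pmel* (124 to 224) were tested and the others are not analysed here. Neither was separate between the genotypes.

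Markers of adipocytes had positive log2 fold changes (5 of 5, median 0.83), with 0 of 5 at an unadjusted p below 0.05, and sums of 1121 to 8854 normalized counts with Penk-/- and 840 to 3275 with Penk+/+ marrow. The 6 accessory gland genes summed to 11717 to 227592 and 10990 to 238453 normalized counts, with 3 of them at 0 in at least 1 library. One of them, *Spink1*, a trypsin inhibitor also made in the gut, had 9394 ± 1719 and 12103 ± 2244 normalized counts (SD, n = 4 per genotype; limma p = 0.038, adjusted p = 0.488; two-sided exact permutation test, p = 0.114). *Spink1* made up nearly all of the lowest sums, with 11545 normalized counts in Penk-/- chimera 1 and 10895 in Penk+/+ chimera 3. In these libraries *Pbsn* was at 0, so that the lowest sums do not show accessory gland tissue. Smooth muscle had a median log2 fold change of 0.05 over 10 genes and enteric neurons one of -0.05 over 10 genes, with no unadjusted p below 0.05 in limma.

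Neurons and glia lie together in the ganglia, and *Sox10* was therefore also taken relative to the neuron score. On the log2 scale this gave values from -1.76 to -1.19 in Penk-/- chimeras and from -2.11 to -1.68 in Penk+/+ chimeras. Chimeras 2, 3 and 4 of Penk-/- were above all Penk+/+ chimeras, and Penk-/- chimera 1 was below Penk+/+ chimeras 2 and 4. The difference was 0.45 (SD 0.25 in Penk-/- and 0.20 in Penk+/+ chimeras, n = 4 per genotype), and it did not pass the exact permutation test, two-sided (p = 0.0857). Relative to smooth muscle it was 0.30 (two-sided exact permutation test, p = 0.0857).

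The members did not vary as a single group. Of their 28 pairs, 16 had a positive r over the 8 libraries and 1 had an r above 0.8, that of *Cdh19* and *Gpm6b* (0.950). The next were *Fabp7* with *Gpm6b* (0.748) and *Fabp7* with *Cdh19* (0.737). These values describe libraries that share depth and tissue makeup. *Gfap* had its highest value in Penk-/- chimera 2 and one of its lowest in chimera 3, unlike *Cdh19*, *Fabp7* and *Gpm6b*.

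**Figure D4:**
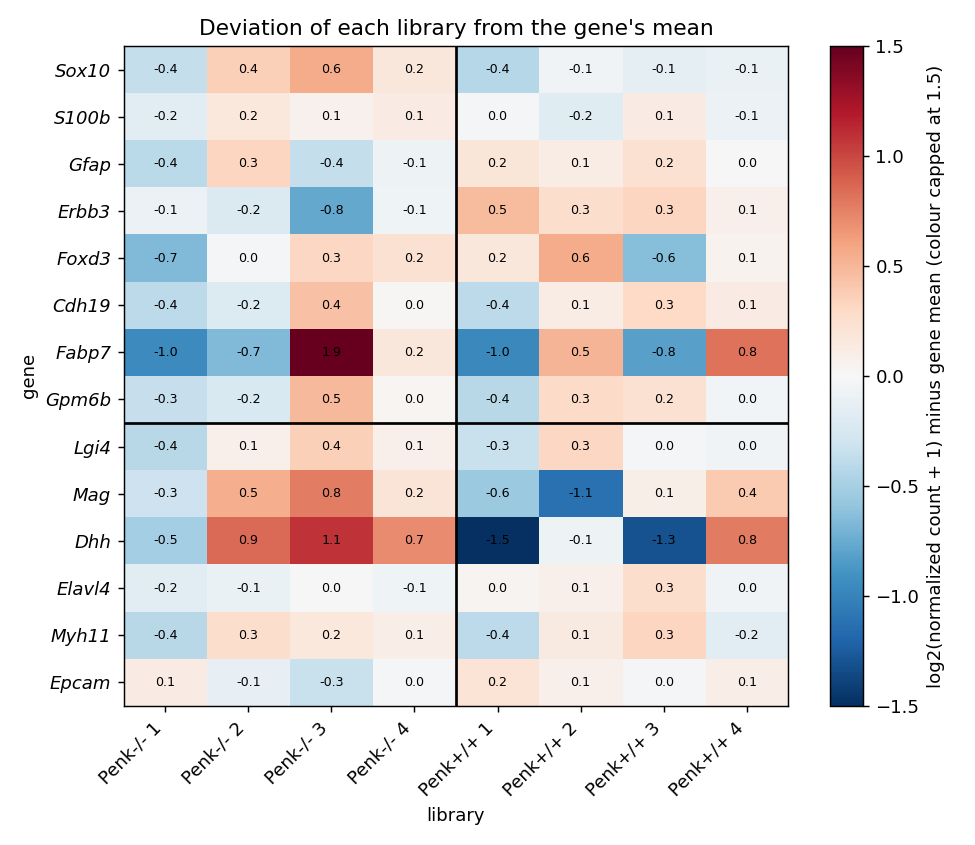
Deviation of each library (columns, 4 Penk-/- and 4 Penk+/+ chimeras) from the mean of the gene (rows), as log2(normalized count + 1) minus the gene mean, with the colour capped at 1.5. The upper rows are the 8 members and the lower rows are markers of glia (*Lgi4*), Schwann cells (*Mag*, *Dhh*), neurons (*Elavl4*), muscle (*Myh11*) and epithelium (*Epcam*). *Dhh* was taken from the crest list. The lower rows are single genes and do not stand for their lists. In Penk-/- chimera 3, *Mag* was highest but *Pmp22* of the Schwann cell list was lowest. The neuron marker *Uchl1* was highest there, unlike *Elavl4*. *Fabp7* is highest in Penk-/- chimera 3, and *Erbb3* is lowest there.

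Among 14863 other genes with a mean of at least 50, those whose log2 values were most like *Sox10* over the 8 libraries were *Ddx51* (r = 0.993), *Peg13* (0.976), *Pald1* (0.968), *Lmo4* (0.966), *Dnajc18* (0.964), *Nova2* (0.963), *Cdc16* (0.956), *Peak1*, *Slc43a3* and *Arhgap23* (0.955 each). None belongs to the glial lists. Glial genes ranked lower, with *Lgi4* at rank 676 (r = 0.799), *Gpm6b* at 2442 (0.600), *S100b* at 2543 (0.590) and *Cdh19* at 2665 (0.576). *Gfap* stood at rank 8145 (-0.100). Of the other glial list only *Lgi4* was ranked here. *Erbb3* was at rank 13769 (-0.818).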

How the data were processed

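RNA was extracted from colon biopsies of 8 chimeric mice. The authors aligned and quantified stranded paired-end reads with STAR 2.7.8a on GRCm39 (Ensembl release 107), after FastQC, and used DESeq2 1.30.0. Normalized counts were deposited, a signal per gene that is the read count divided by a size factor. In each library 100% of values were whole multiples of 1 step (tolerance 0.01), so that reads could be recovered. No library was left out. Libraries differed beyond sampling noise, with chi-square values of at least 11.2 times their degrees of freedom. GENCODE M39 named 25776 of 26008 identifiers, with 12 names shared by several identifiers.

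The comparison of genotypes used limma 3.58.1 (R 4.3.3, eBayes with trend) on log2(value + 1) for genes with a mean of at least 10, without covariates, two-sided, with Benjamini-Hochberg adjustment. Fold changes on this scale understate those of low genes. Single values were tested by exact permutation over 70 assignments of the libraries, and correlations by permutation over all pairings (scipy 1.17.1 and numpy 2.4.6 in Python 3.11.15, with pandas 2.3.3 and matplotlib 3.10.9). The fit was tested on simulated data, with calls at an adjusted p below 0.05. It recovered 65% of the genes given a log2 change of 1 and 91.9% of those given 2. There were 5 false calls, with 19118 genes tested. Named genes were the 8 members, list genes with an unadjusted p below 0.05 or separate genotypes, the 3 of highest mean in the glial, neuregulin, crest, reactive and family lists, and the 10 most like *Sox10*. *Lgi4*, *Entpd2* and the markers of other cells were named after their values were seen. The members and lists were chosen with earlier results of these data known. Counting intervals cover counting error only. Some listed genes are not reported here, and list counts, medians and scores were computed without them.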

Additional observations from a re-analysis of the deposited data

How the results depend on the processing

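No member had an adjusted p below 0.05 under any of 19 alternatives (pseudocounts of 0.1 and 8, a minimum mean of 50 or none, no trend, quantile normalization, voom, a replicate block, covariates, and libraries left out). The mean of 50 dropped *Foxd3* and *Fabp7*, and voom was chosen after seeing the data. The planned edgeR and DESeq2 fits were not run. *Erbb3* kept its direction (log2 fold change -0.64 to -0.41, limma adjusted p 0.191 to 0.628), as did *Sox10* (0.21 to 0.54, 0.300 to 0.829), *Gfap* (-0.41 to -0.17) and *S100b* (0.04 to 0.17).

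Members at an unadjusted p below 0.05 were 2 with the replicate block (*Erbb3*, *Sox10*) and 1 to 2 when each library was left out (*Sox10* joined without Penk-/- chimera 1, *Gfap* without Penk-/- chimera 2). Genes called were 1 under quantile normalization, 1 under the replicate block, 1 with the muscularis score as a covariate, and 0 to 6 when each library was left out, with 6 without Penk-/- chimera 1. Genes at an unadjusted p below 0.05 were 2938 under the replicate block. The deviations of same-numbered chimeras had correlations of 0.145, -0.044, -0.321 and -0.162. Penk-/- chimera 3 and Penk+/+ chimera 4, the libraries richest in *Pbsn*, had one of 0.561. The labels do not pair the mice. These correlations cannot decide whether same-numbered mice shared a condition, because tissue makeup also enters them. The cause of these shifts was not tested.

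The sign of the weak fold changes depended on single libraries. Leaving out each in turn gave *Fabp7* -0.37 to 0.59, *Foxd3* -0.30 to 0.14, *Cdh19* -0.23 to 0.048 and *Gpm6b* -0.19 to 0.088. *Fabp7* was also negative with the muscularis covariate (-0.036) and without the chimeras richest in *Pbsn* (-0.054). Without those chimeras the log2 fold change was 0.27 for *Sox10*, 0.07 for *S100b*, -0.23 for *Gfap* and -0.48 for *Erbb3*. It was -0.18 for *Foxd3*, -0.20 for *Cdh19* and -0.21 for *Gpm6b*. *Sox10* relative to neurons ranged from 0.37 to 0.56 and passed the exact permutation test, two-sided, without Penk-/- chimera 1 (p = 0.0286). *Erbb3* relative to epithelium had an exact permutation p of 0.0571 without any 1 Penk-/- chimera, above the 0.0286 it had with all libraries and without any 1 Penk+/+ chimera. With epithelium in place of the muscularis score, 2 members (*Sox10*, *Erbb3*) passed adjustment over the 8 relations. Over the 40 relations given above *Erbb3* did not pass (permutation test, adjusted p = 0.179). The share of all genes that relate as closely to epithelium was not computed. The correlation of *Gfap* with the reversed epithelium score was -0.27. With the neuron score it was -0.022. *Foxd3* and *Fabp7* rest on few reads, which limits their precision.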
